A study of Mus musculus with 9 samples.

Results

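The nuclear genes of mitochondrial complex I that carry a symbol starting with Nduf were described in mouse heart. They were taken as every row of the deposited count table whose Ensembl identifier maps to a protein-coding mouse gene with such a symbol, which gave 46 genes of 55401 rows. A further 5 rows with an Nduf symbol are not annotated as coding and were left out, and the subunit Ndufb1 was not analysed here. Of the 46 genes, 7 encode core subunits, 9 accessory subunits of the matrix arm, 19 accessory subunits of the membrane arm and 1 the acyl carrier protein Ndufab1, while 8 encode assembly factors and 2 are Ndufa4 and its paralog Ndufa4l2. All 46 passed the filter on low counts, and the lowest count of any of them was 137 reads, for Ndufaf6.

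RNA of 9 samples labelled as heart and C57BL/6, an inbred laboratory strain, was enriched for poly(A) and sequenced as read pairs, 1 library each. The hearts of a group, as named below, are its libraries, and n counts libraries. The group Kmo+Ang II and the group Ang II, with 3 libraries each, are both labelled as treated with angiotensin II, a pressor peptide that also loads the heart. The group Ctrl, with 3 libraries, is labelled as treated with PBS, a salt buffer. The labels explain neither Kmo nor any allele, and give no age, sex, dose or duration and no statement that libraries came from separate animals, so p-values measure only the spread between these samples. The sample titles begin with letters that cross these groups and are not explained: KKA in the 3 Kmo+Ang II libraries, WA in Ang II replicate 3 and in Ctrl replicates 2 and 3, and WC in Ang II replicates 1 and 2 and in Ctrl replicate 1. Comparisons are therefore given by treatment label and by title letters. The KKA libraries are the Kmo+Ang II libraries, so these names cannot be told apart.

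Complex I takes electrons from NADH, passes them along iron-sulphur clusters to ubiquinone and pumps protons across the inner mitochondrial membrane. Its matrix arm holds the flavin and the clusters, its membrane arm holds the proton channels, whose core subunits are encoded in mitochondrial DNA, and accessory subunits surround both arms. Assembly factors help to build the complex and are not part of the finished enzyme. Heart muscle is packed with mitochondria and relies on this enzyme for most of its ATP.

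Total counts ranged from 56827533 to 73194268 per library, and mitochondrially encoded genes took between 30.3% and 55.5% of them. Levels are given as CPM, counts divided by the library size after TMM scaling. Cardiomyocyte genes were high in every library, which fits the label heart: the myosin heavy chain Myh6 was at 8389.7 CPM or above. Kmo+Ang II replicate 3 stood apart. It had the lowest summed CPM of 14 cardiomyocyte markers, 21477, against 30886 to 63943 in the other 8 libraries, together with the highest summed CPM of fibroblast markers (2097) and of epicardial and mesothelial markers (86.1). The atrial myosin light chain Myl7 was at 469 CPM in that library, at 47.7 CPM in Ctrl replicate 2 and below 1 CPM in the other 7 libraries. Haemoglobin and Alas2 transcripts summed to between 2944 and 7318 CPM in the 3 WC libraries and to between 116 and 490 CPM elsewhere. In such bulk samples, fewer cells of a type and less RNA per cell cannot be told apart.

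Per kilobase of transcript, subunit transcripts were far more abundant than those of the assembly factors. The 36 structural subunits, Ndufab1 included, averaged between 45.8 and 388 CPM per kb over the 9 libraries with a median of 172. The 8 assembly factors averaged between 5.91 and 12.9 CPM per kb with a median of 8.51, so the ranges of the level per length did not overlap. Among the structural subunits the highest level per length was that of Ndufb8 and the lowest that of Ndufs4, an accessory subunit of the matrix arm. Ndufa4, which is now assigned to cytochrome c oxidase, stood above all of them at 690 CPM per kb, while its paralog Ndufa4l2, known as a hypoxia-induced gene, stood at 14.3 CPM per kb. The length is that of 1 annotated transcript per gene, so these levels rest on that choice.

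The members varied together from library to library, and their summed levels overlapped between the treatment groups. Summed over the 46 genes, the level was 9586, 5032 and 2613 CPM in Kmo+Ang II replicates 1, 2 and 3. It was 6299.6, 4134 and 8682 CPM in the Ang II libraries and 4997, 6614 and 7504 CPM in the Ctrl libraries. The highest and the lowest library thus belong to the same group, lie 3.67-fold apart and enclose all libraries of the other groups. The group means were 5743 ± 3540 CPM in Kmo+Ang II, 6372 ± 2275 CPM in Ang II and 6371.5 ± 1271 CPM in Ctrl hearts (SD, n = 3 each).

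This order of libraries was shared by most members. Kmo+Ang II replicate 1 had the highest level of 27 of the 46 genes, Ang II replicate 3 of 13, Ctrl replicate 3 of 4 and Ang II replicate 1 of 2. Kmo+Ang II replicate 3 had the lowest level of 42 genes, Ang II replicate 2 of 3 and Kmo+Ang II replicate 1 of 1, which was Ndufa4l2. A principal component analysis of the members' log2 CPM put 87.2% of their variance on the first component, with Kmo+Ang II replicates 1 and 3 at its ends. The heat map of 45 members shows this common course.

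**Figure D1:**
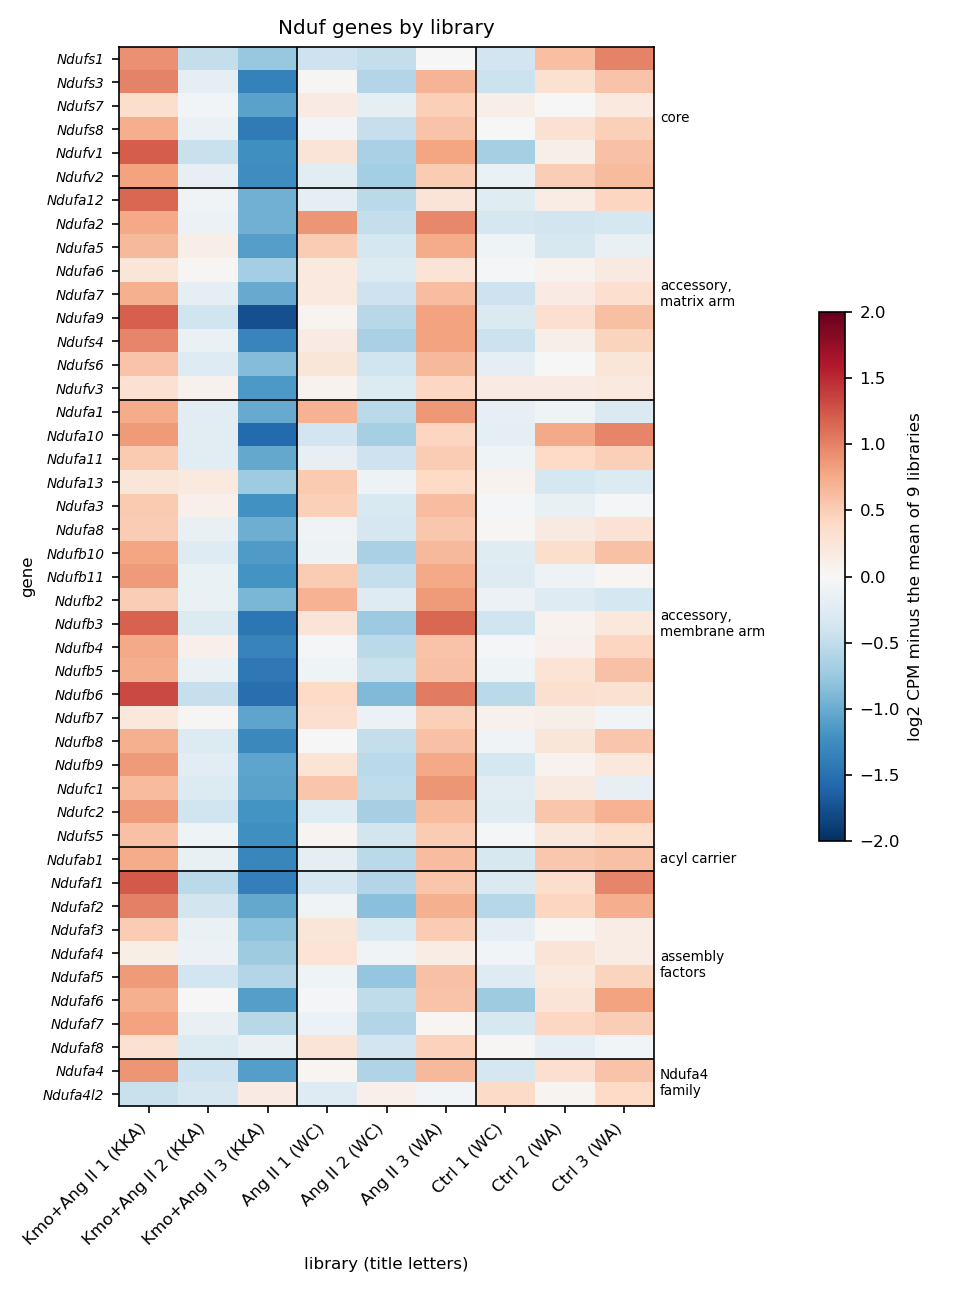
Level of each of 45 Nduf genes (rows, grouped by role) in each of the 9 libraries (columns, with the title letters), as log2 CPM minus the gene's mean over the 9 libraries. Kmo+Ang II 3 is lowest for 41 of these genes and Kmo+Ang II 1 highest for 26, and Ndufa4l2 at the bottom does not follow the others.

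The order resembled that of the heart muscle genes, with the same libraries at both ends, but Ang II replicates 1 and 3 ranked higher by the members than by the markers. The median of the members, as log2 CPM minus each gene's mean over the 9 libraries, was 0.74, -0.17 and -1.10 in Kmo+Ang II replicates 1, 2 and 3. The same measure over 14 cardiomyocyte markers was 0.77, -0.17 and -1.29 in these libraries, so both lists spanned about the same range within this group. In the Ang II libraries the members' median was 0.05, -0.49 and 0.58, and that of the cardiomyocyte markers was -0.33, -0.45 and 0.43. In the Ctrl libraries the members' median was -0.21, 0.18 and 0.42, and that of the markers was -0.29, 0.48 and 0.64. Both medians were above 0 in Kmo+Ang II replicate 1, Ang II replicate 3 and Ctrl replicates 2 and 3, and in Ang II replicate 1 only that of the members was. The part of cell composition in these levels was not tested.

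**Figure D2:**
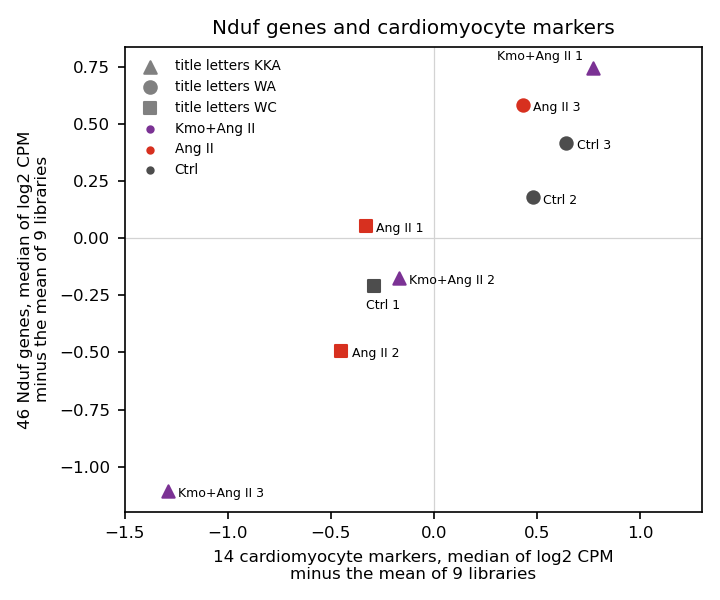
Each point is 1 library, with the median of 14 cardiomyocyte markers on the x axis and the median of the 46 Nduf genes on the y axis, both as log2 CPM minus the mean of 9 libraries (colour: treatment label, shape: title letters). Libraries with high cardiomyocyte markers have high Nduf levels, and the 3 Kmo+Ang II libraries span the whole range.

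The core subunits carry the electrons from NADH to ubiquinone. Ndufv1, which binds NADH and the flavin, was at 443, 141 and 82.5 CPM in the Kmo+Ang II libraries, at 230.3, 123 and 333 CPM in the Ang II libraries and at 122, 209 and 288 CPM in the Ctrl libraries. Its highest and lowest values both lay within the Kmo+Ang II group, and the groups overlapped.

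Ndufs1, the largest subunit of the complex and a carrier of iron-sulphur clusters, departed from this order. Its level was 259, 97.8 and 80.9 CPM in the Kmo+Ang II libraries, 102, 98.6 and 137 CPM in the Ang II libraries and 105, 207 and 273 CPM in the Ctrl libraries. The highest value was that of Ctrl replicate 3, and Ctrl replicate 1 lay among the Ang II libraries. Ndufs1 overlaps Eef1b2 and Ino80dos on the other strand, and the use of strand in the counting is not given, so reads may be mixed. Ndufv2 and Ndufs8, further iron-sulphur subunits, spanned 4.13-fold and 4.43-fold over the 9 libraries, Ndufs3 spanned 5.05-fold and Ndufs7, which lies at the ubiquinone pocket, 2.92-fold.

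Among the accessory subunits the spread differed widely. Ndufb6, a small membrane-arm subunit, had the largest SD of log2 CPM of all members, 0.92, followed by Ndufa9, which sits where the arms meet, with 0.88 and Ndufb3, another small membrane-arm subunit, with 0.84. Ndufa9 was at 409, 136 and 53.1 CPM in the Kmo+Ang II libraries, at 186, 122 and 315 CPM in the Ang II libraries and at 147, 226 and 271 CPM in the Ctrl libraries. This 7.70-fold range lay wholly within the Kmo+Ang II group, which enclosed both other groups. The acyl carrier protein Ndufab1, which also serves mitochondrial fatty acid and lipoate synthesis, was at 207, 111 and 50.1 CPM in Kmo+Ang II, at 109, 85.0 and 189 CPM in Ang II and at 98.9, 179 and 184 CPM in Ctrl hearts. Its values overlapped between the treatment groups.

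Assembly factors included both strongly varying and flat genes. Ndufaf1, which works with Ecsit and Acad9 in building the membrane arm, was at 30.1, 8.89 and 4.97 CPM in the Kmo+Ang II libraries, at 10.2, 8.56 and 19.0 CPM in the Ang II libraries and at 10.5, 16.4 and 25.4 CPM in the Ctrl libraries. Ndufaf8, a partner of Ndufaf5, and Ndufaf4, an assembly factor of the early steps, had the lowest SD of log2 CPM of all members, 0.29 and 0.30. Ndufaf4 was at 47.0, 40.0 and 26.5 CPM in the Kmo+Ang II libraries, at 52.2, 41.2 and 48.2 CPM in the Ang II libraries and at 41.5, 51.7 and 47.7 CPM in the Ctrl libraries. It was lowest in Kmo+Ang II replicate 3, as most members were, but its other 8 values stayed between 40.0 and 52.2 CPM.

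Ndufa4 and Ndufa4l2 took unlike courses. Ndufa4 followed the subunits and was at 709, 288 and 179 CPM in the Kmo+Ang II libraries, at 396, 255 and 606 CPM in the Ang II libraries and at 303, 485 and 569 CPM in the Ctrl libraries. Ndufa4l2 was at 9.58, 10.4 and 14.7 CPM in Kmo+Ang II, at 11.01, 14.02 and 12.6 CPM in Ang II and at 17.1, 13.6 and 17.3 CPM in Ctrl hearts. It was lowest in the very library in which most members were highest, and its groups overlapped through Ctrl replicate 2. It overlaps the gene Shmt2 on the other strand, and the strand setting of the counting is not given in the sources used here, so reads from both genes may be mixed.

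Genes of the respiratory chain are known to be driven in part by the factors NRF1, GABPA, the oestrogen-related receptors and YY1, so the promoters of the members were searched for their core motifs. RefSeq promoter windows of GRCm38.p6, from 250 bases before to 50 after the start, were found for 40 of the 46 members, and exact matches were sought on both strands. The palindromic NRF1 core, written in capitals in the sequences of Ndufa11 and Ndufaf4, was in 3 of the 40 members (7.50%) and in 1.07% of all 27025 genes with a window. The ETS core CCGGAAG, to which GABPA binds, was in 6 of 40 members (15.0%) and in 9.93% of all genes. The YY1 core AAGATGGCG was in 6 of 40 members (15.0%), each time after the start site, and in 1.64% of all genes, while the oestrogen-related receptor core TCAAGGTCA was in 0 of 40 members and in 0.466% of all genes. A match describes letters and shows no binding.

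The 120 bases before the start of 4 members are shown because they hold these letters in genes with unlike results: Ndufa11, Ndufs3 and Ndufaf1 were called between WA and WC libraries in the fit of 6 libraries described further on, and Ndufaf4 was not. Capitals mark the NRF1 core in Ndufa11 and Ndufaf4 and the ETS core in Ndufs3 and Ndufaf1, and each sequence runs 5′ to 3′ on the gene's strand. Ndufa11 lies at chr17:56717642-56717761 on the plus strand, Ndufaf4 at chr4:24897963-24898082 on the plus strand, Ndufs3 at chr2:90904722-90904841 on the minus strand and Ndufaf1 at chr2:119662835-119662954 on the minus strand.
Ndufa11: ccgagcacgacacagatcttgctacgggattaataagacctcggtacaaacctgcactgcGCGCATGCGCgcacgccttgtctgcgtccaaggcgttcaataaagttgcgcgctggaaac
Ndufaf4: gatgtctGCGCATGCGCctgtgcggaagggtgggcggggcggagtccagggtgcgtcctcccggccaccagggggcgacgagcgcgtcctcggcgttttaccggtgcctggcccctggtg
Ndufs3: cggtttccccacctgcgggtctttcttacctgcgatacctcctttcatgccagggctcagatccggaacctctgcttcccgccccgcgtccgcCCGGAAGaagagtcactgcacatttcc
Ndufaf1: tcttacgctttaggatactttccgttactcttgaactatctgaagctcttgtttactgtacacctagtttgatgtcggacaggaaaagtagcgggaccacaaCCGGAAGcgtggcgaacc
The same NRF1 letters thus stand before the start of a gene that was called, Ndufa11, and of one that was not, Ndufaf4. This pair was picked with its results known. The NRF1 core of Ndufaf5, which was called too, lies after the start. Called were 2 of 3 members with the NRF1 core, 3 of 6 with the ETS core and 1 of 6 with the YY1 core. Of all 40 members with a window, 16 were called.

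The first comparison sets hearts labelled as given angiotensin II against those given PBS. Among Ang II and Ctrl hearts, 0 of the 46 members were called at an adjusted p under 0.05 by edgeR's quasi-likelihood test with Benjamini-Hochberg adjustment over all genes, and 0 of 19091 genes tested were called (0%). At an unadjusted p under 0.05 edgeR gave 0 members, against 5.25% of all genes, and the values of the groups overlapped for every member, while 6.44% of all genes were higher and 5.74% lower in Ang II without overlap. The members' median log2 difference, Ang II minus Ctrl, was -0.08, against 0.02 for all genes tested, and 21 of 46 differences were positive (45.7%, against 52.0% of all genes). Single libraries set this direction: the median was 0.14 with 36 of 46 positive without Ang II replicate 2, 0.09 with 31 positive without Ctrl replicate 3 and -0.34 with 10 positive without Ang II replicate 3. By role, the median log2 difference was -0.18 for the core subunits, 0.13 for the accessory subunits of the matrix arm, 0.20 for those of the membrane arm and -0.16 for the assembly factors.

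The smallest p-values in this comparison belonged to genes with differences of opposite sign. Ndufa2, a thioredoxin-like subunit of the matrix arm, was at 174, 67.3 and 183 CPM in the Ang II libraries, against 74.6, 73.1 and 73.6 CPM in the Ctrl libraries. Ang II replicates 1 and 3 were high, but replicate 2 lay below every Ctrl library, and the log2 difference was 0.94 ± 0.46 (SE, edgeR adjusted p = 0.89). Ndufb2, a membrane-arm subunit, was at 127, 65.6 and 141 CPM in Ang II and at 71.9, 65.2 and 61.1 CPM in Ctrl hearts, and differed by 0.75 ± 0.38 on the log2 scale (SE; edgeR adjusted p = 0.89). Ndufs1 had a log2 difference of -0.79 ± 0.48 (SE; adjusted p = 0.89, edgeR), Ndufa4l2 of -0.35 ± 0.22 and Ndufa4 of -0.11 ± 0.53. None of these differences was called by edgeR.

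Because Ang II has more WC and Ctrl more WA libraries, the difference was also fitted with the title letters as a covariate. The members' median log2 difference, Ang II minus Ctrl, was then 0.16 and 34 of 46 were positive, with 0 called by edgeR and the median of all genes at 0.02. When library size alone set the scaling, the members' median was 0.59, beside 0.67 for all genes, so the direction of the members by themselves flips with the scaling and they stay slightly below the shift of all genes.

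The second comparison is between the groups that share angiotensin II, and what sets Kmo apart is not in the labels. Between Kmo+Ang II and Ang II hearts, edgeR called 0 of 46 members and 0 of 19091 genes (0%), and at an unadjusted p under 0.05 it gave 0 members, against 2.16% of all genes. Over the members the median log2 difference, Kmo+Ang II minus Ang II, was -0.14, against 0.03 for all genes, with 9 of 46 positive (19.6%, against 54.5% of all genes). Ndufb2 had the smallest p and was at 110.3, 71.5 and 41.3 CPM in Kmo+Ang II, against 127, 65.6 and 141 CPM in Ang II hearts, and differed by -0.58 ± 0.38 on the log2 scale (SE; edgeR adjusted p = 1). Ndufaf4 had a log2 difference of -0.32 ± 0.24 and Ndufb7, a subunit on the intermembrane side, of -0.43 ± 0.35. Ndufs1 differed by 0.37 ± 0.48, Ndufa4 by -0.10 ± 0.53 and Ndufa4l2 by -0.12 ± 0.22 on the log2 scale. The groups overlapped for every member, while 3.22% of all genes were higher and 2.94% lower in Kmo+Ang II without overlap.

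Single libraries of either group set the direction of this comparison. Without Kmo+Ang II replicate 3, the library that stood apart, the members' median log2 difference, Kmo+Ang II minus Ang II, was 0.20 and 35 of 46 were positive. Without Kmo+Ang II replicate 1 the median was -0.72 and 0 of 46 were positive, and without Ang II replicate 3 it was 0.19 and 30 of 46 were positive. In all 3 cases edgeR called 0 members.

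Between Kmo+Ang II and Ctrl hearts, edgeR also called 0 of 46 members and 0 of 19091 genes (0%), with 0 members and 2.79% of all genes at an unadjusted p under 0.05. For Kmo+Ang II minus Ctrl the members' median log2 difference was -0.13, against 0.05 for all genes, and 14 of 46 were positive (30.4%, against 55.4% of all genes). Ndufa4l2 had the smallest p and averaged 11.6 ± 2.76 CPM in Kmo+Ang II and 16.0 ± 2.09 CPM in Ctrl hearts (SD, n = 3 each), a difference of -0.47 ± 0.22 on the log2 scale (SE; edgeR adjusted p = 0.998). Its groups overlapped, since Kmo+Ang II replicate 3 lay above Ctrl replicate 2. Ndufaf4 had a log2 difference of -0.31 ± 0.24, Ndufa10 of -0.60 ± 0.57, Ndufs1 of -0.42 ± 0.48 and Ndufa4 of -0.21 ± 0.53. The members' median was 0.18 without Kmo+Ang II replicate 3 and -0.66 without Kmo+Ang II replicate 1.

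The 7 complex I subunits encoded in mitochondrial DNA did not keep to the order of the nuclear members. Their summed level was 78850.0, 119540.0 and 259270.0 CPM in the Kmo+Ang II libraries, 62327, 108850.0 and 66306 CPM in the Ang II libraries and 182000.0, 267170.0 and 157640.0 CPM in the Ctrl libraries. The Ang II libraries thus all lay below the Ctrl libraries, with means 2.56-fold apart, and Kmo+Ang II replicate 3, with the lowest nuclear members, was among the highest. As a share of all counts, without TMM scaling, these subunits took 8.48%, 12.9% and 8.27% in the Ang II libraries, against 16.1%, 18.2% and 13.3% in the Ctrl libraries, still without overlap but with means 1.60-fold apart. For each read of a nuclear member there were 8.23, 23.8 and 99.2 reads of the mitochondrial subunits in Kmo+Ang II, 9.89, 26.3 and 7.64 in Ang II and 36.4, 40.4 and 21.01 in Ctrl hearts.

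**Figure D3:**
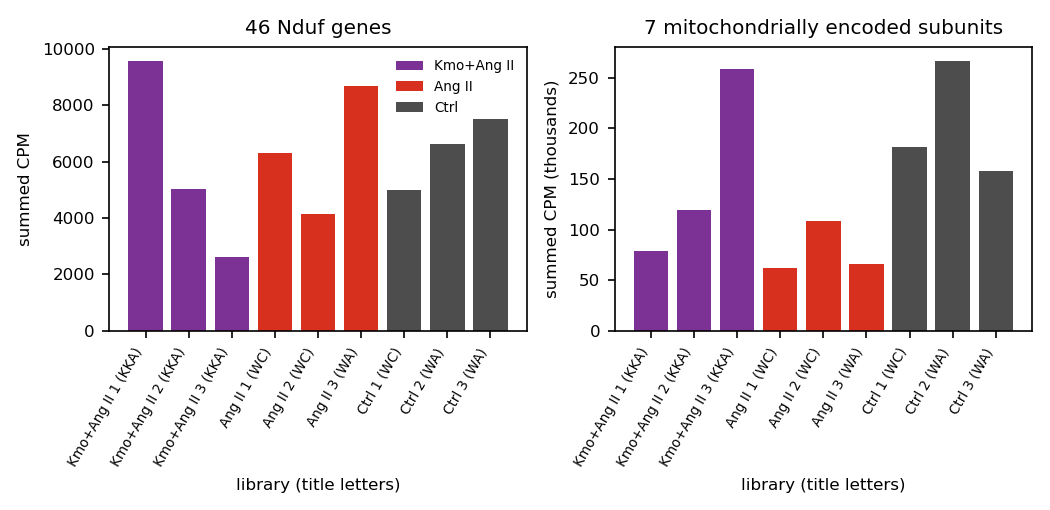
Summed CPM of the 46 nuclear Nduf genes (left) and of the 7 mitochondrially encoded complex I subunits (right, on an axis in kilo-CPM) in each library, coloured by treatment label. On the left the Kmo+Ang II libraries hold both the highest and the lowest bar, and on the right the 3 Ang II bars lie below the 3 Ctrl bars.

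In edgeR the mitochondrial subunits gave 0 calls of 7 between Ang II and Ctrl hearts. All 7 log2 differences, Ang II minus Ctrl, were negative with a median of -1.41, and 6 of 7 were lower in Ang II without overlap, against 5.74% of all genes tested. All mitochondrially encoded genes together, these 7 included, took 32.0%, 39.5% and 30.3% of all counts in the Ang II libraries. In the Ctrl libraries they took 48.3%, 52.6% and 43.4%, so the lower share was not confined to the complex I subunits. The smallest p was that of mt-Nd4, a proton-channel subunit, which averaged 22786 ± 7992 CPM in Ang II and 65372 ± 22169 CPM in Ctrl hearts (SD, n = 3 each), a difference of -1.52 ± 0.53 on the log2 scale (SE; edgeR adjusted p = 0.89). These counts may be shared with copies of mitochondrial DNA in the nuclear genome, and how far poly(A) selection sets them was not tested.

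The summed level of the members was higher in each of the 3 WA libraries than in each of the 3 WC libraries. Summed over the 46 genes, the level was 8682 CPM in Ang II replicate 3 and 6614 and 7504 CPM in Ctrl replicates 2 and 3, all WA, against 6299.6 and 4134 CPM in Ang II replicates 1 and 2 and 4997 CPM in Ctrl replicate 1, all WC. The means were 7599.8 ± 1038 CPM in WA and 5144 ± 1090.1 CPM in WC libraries (SD, n = 3 each), without overlap. As a share of all counts the members took 1.08%, 0.450% and 0.633% in the same WA libraries, against 0.857%, 0.489% and 0.441% in the WC libraries, so without TMM scaling the groups overlapped. Shares of the counts of nuclear genes, between 0.950% and 1.55% in WA and between 0.809% and 1.26% in WC libraries, overlapped too. The members' median log2 difference, WA minus WC, was 0.61, against -0.03 for all genes tested, and 45 of 46 were positive (97.8%, against 48.3% of all genes).

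The call depended on the libraries in the fit. In the fit of all 9 libraries edgeR called 0 of 46 members and 0 of 19091 genes (0%), with 6 members at an unadjusted p under 0.05 (13.0%), against 18.0% of all genes in either direction. All 6 members were higher in WA, while of all genes 8.78% were higher and 9.25% lower at that threshold. The smallest p-values were those of Ndufaf2, Ndufc2 and Ndufaf6, with log2 differences of 1.09 ± 0.44, 0.99 ± 0.41 and 0.96 ± 0.40 (SE) and edgeR adjusted p-values of 0.248, 0.252 and 0.255. WA values lay above all WC values for 24 of 46 members (52.2%), against 16.5% of all genes.

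When the 6 WA and WC libraries were fitted alone, edgeR called 19 of 46 members, all higher in WA, against 13.3% of 18111 genes called in either direction and 8.06% called higher. The members' median log2 difference was 0.62, beside -0.01 for all genes. By role, 5 of 7 core subunits, 2 of 9 accessory subunits of the matrix arm, 5 of 19 of the membrane arm, Ndufab1, 5 of 8 assembly factors and Ndufa4 were called. The lead came from Ndufc2, a subunit of the membrane arm, which was at 55.8, 52.5 and 57.8 CPM in the WA libraries, against 30.4, 22.6 and 30.3 CPM in the WC libraries. These values did not overlap, and the log2 difference was 1.01 ± 0.17 (SE, edgeR adjusted p = 0.00538).

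Ndufaf1 and Ndufa10 followed. Ndufaf1 was at 19.0, 16.4 and 25.4 CPM in WA, against 10.2, 8.56 and 10.5 CPM in WC libraries, a difference of 1.07 ± 0.20 on the log2 scale (SE; edgeR adjusted p = 0.00739). Ndufa10, a membrane-arm subunit that faces the matrix, was at 291, 364 and 425 CPM in WA, against 165, 135 and 188 CPM in WC libraries, a difference of 1.16 ± 0.22 on the log2 scale (SE; edgeR adjusted p = 0.00811). Both were free of overlap. Among the others called were Ndufab1 (log2 difference 0.93 ± 0.18), Ndufs1 (1.02 ± 0.24), Ndufa4 (0.81 ± 0.23) and, named after their values were seen, Ndufs3 (0.85 ± 0.21) and Ndufa11 (0.69 ± 0.18), whose promoters are shown with that of Ndufaf1. Ndufaf2, which joins late in assembly, averaged 11.3 ± 1.27 CPM in WA and 5.33 ± 1.48 CPM in WC libraries (SD, n = 3 each).

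Other members were not called. Ndufa4l2 averaged 14.5 ± 2.496 CPM in WA and 14.04 ± 3.03 CPM in WC libraries (SD, n = 3 each), a difference of 0.06 ± 0.20 on the log2 scale (SE; edgeR adjusted p = 0.872). Ndufaf4, which shares the NRF1 letters with Ndufa11, differed by 0.14 ± 0.16 (edgeR adjusted p = 0.611). Ndufa13, chosen after its values were seen, was the only member with a negative log2 difference, -0.21 ± 0.25 (edgeR adjusted p = 0.627). Ndufa2 and Ndufb2 differed by 0.08 ± 0.51 and 0.03 ± 0.38, and each had 1 high WA library, Ang II replicate 3, and 1 high WC library, Ang II replicate 1.

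**Figure D4:**
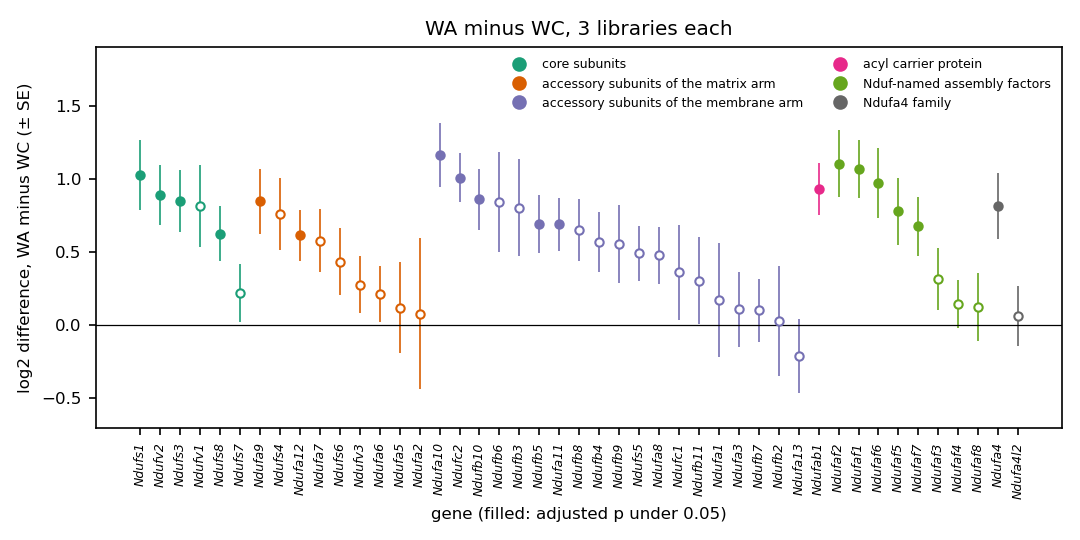
Log2 difference, WA minus WC, of each of 45 Nduf genes in the edgeR fit of 6 libraries (3 WA and 3 WC), grouped and coloured by role, with bars of ± 1 SE. Filled points are the 18 of these genes called at an adjusted p under 0.05, all above 0, and Ndufa13 is the only gene below 0.

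The number of calls rested on single libraries, for the members and for all genes. Leaving out a Ctrl library gave 5 member calls for replicate 1, 9 for replicate 2 and 4 for replicate 3. Of all genes, 1020 of 18869, 1270 of 19028 and 524 of 18913 were then called. Leaving out an Ang II library gave 25 member calls for replicate 1, 1 for replicate 2 and 14 for replicate 3. Of all genes, 2434 of 18692, 459 of 18741 and 2980 of 18746 were then called. Without Ang II replicate 2 the share of members called, 1 of 46, was thus near that of all genes. Of the genes named first, Ndufaf1 and Ndufa10 lost the call without Ang II replicate 2 (edgeR adjusted p = 0.0564 and 0.0573). Ndufs1 and Ndufa4 lost it without each Ctrl library and without Ang II replicate 2, and Ndufa4 also without Ang II replicate 3. When library size alone set the scaling edgeR called 0 members and 232 of 18111 genes, and the members' median was then 0.30 beside -0.32 for all genes. The members lay 0.63 above all genes on the log2 scale under both scalings.

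Genes of heart muscle, blood and other cell types differed between the same libraries. All 14 cardiomyocyte markers had a positive log2 difference, WA minus WC, in the fit of 6 libraries, with a median of 1.04, and edgeR called 8 higher. Their summed level was between 50504 and 63943 CPM in WA and between 30886 and 37335 CPM in WC libraries. The 5 red cell genes were all called lower in WA, with a median log2 difference of -4.05, and summed to between 116 and 490 CPM in WA and between 2944 and 7318 CPM in WC libraries. Of 9 fibroblast markers, edgeR called 4 higher. All 5 neutrophil markers tested were lower in WA without overlap, with a median log2 difference of -3.70 and 2 called, and of 9 macrophage markers 2 were called lower. Of 7 T and NK cell markers 6 had a negative log2 difference, with a median of -1.66 and 0 called. Of 5 atrial and 5 adipocyte markers tested, 1 each was called higher, and of 6 epicardial and mesothelial markers 1 was called lower. Of 9 endothelial markers 8 had a negative log2 difference and 0 were called, and 0 of 6 smooth muscle and pericyte markers were called. Taken minus the median of the cardiomyocyte markers, the members' median was 0.15, -0.30 and -0.22 on the log2 scale in the WA libraries, against 0.38, -0.04 and 0.08 in the WC libraries, so on that scale WA libraries were not the higher ones. The part of cell composition in the WA to WC difference was not tested beyond these values.

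Further genes of the pathway were compared in the same fit. Of 11 other complex I assembly factors, which were listed with the earlier results known, edgeR called 4 higher in WA and 0 lower: Aifm1, whose log2 difference was 0.91 ± 0.19 (adjusted p = 0.0125), and, named after their values were seen, Timmdc1, Tmem70 and Tmem126b, with 0.81 ± 0.19, 0.93 ± 0.23 and 0.69 ± 0.19. Of the 7 mitochondrially encoded subunits, 0 were called, but 6 had a positive log2 difference and their median was 0.54, near the 0.62 of the members and the 0.53 of the other assembly factors, and the smallest p was that of mt-Nd6, with 0.65 ± 0.51 (adjusted p = 0.432). Whether these lists differ from each other was not tested.

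Between KKA and WA libraries, edgeR called 0 of 46 members and 0 of 19091 genes (0%) in the fit of 9 libraries, and gave 0 members, against 7.05% of all genes, at an unadjusted p under 0.05. For KKA minus WA the members' median log2 difference was -0.38, against 0.05 for all genes, and 2 of 46 were positive (4.35%, against 54.8% of all genes). Ndufa11, a membrane-arm subunit, averaged 141 ± 72.5 CPM in KKA and 210.2 ± 8.04 CPM in WA libraries (SD, n = 3 each), a difference of -0.58 ± 0.34 on the log2 scale (SE; edgeR adjusted p = 0.734). Ndufaf4 was lower in KKA without overlap, at 47.0, 40.0 and 26.5 CPM, against 48.2, 51.7 and 47.7 CPM in WA libraries, and its log2 difference was -0.38 ± 0.23 (SE, edgeR adjusted p = 0.742). It was the only such member, and 2.52% of all genes were lower without overlap. Ndufc2 had a log2 difference of -0.63 ± 0.40, Ndufs1 of -0.50 ± 0.42, Ndufa4 of -0.50 ± 0.45 and Ndufa4l2 of -0.33 ± 0.24. Without Kmo+Ang II replicate 1 edgeR called 13 of 46 members, all lower in KKA, and 1709 of 19742 genes, and the members' median was -0.94. Without Kmo+Ang II replicate 3 it called 0 members and 3 of 19809 genes, and the members' median was -0.06.

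Between KKA and WC libraries, edgeR called 0 of 46 members and 0 of 19091 genes (0%), with 0 members and 3.51% of all genes at an unadjusted p under 0.05. For KKA minus WC the members' median log2 difference was 0.17, against 0.05 for all genes, and 32 of 46 were positive (69.6%, against 55.7% of all genes). The smallest p-values were those of Ndufaf7, an assembly factor with methyltransferase activity, with 0.49 ± 0.32, of Ndufa12 with 0.61 ± 0.42 and of Ndufaf2 with 0.59 ± 0.44, each with an edgeR adjusted p of 0.995. Ndufs1 differed by 0.52 ± 0.42, Ndufa4 by 0.30 ± 0.45 and Ndufa4l2 by -0.28 ± 0.24. The median was 0.54 without Kmo+Ang II replicate 3 and -0.40 without Kmo+Ang II replicate 1.

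Beside the common course, the members parted along a second component, which held 8.31% of their variance. Ndufs1, Ndufa10, Ndufaf1, Ndufaf7 and Ndufc2 had the highest weights on it, and Ndufa2, Ndufb2, Ndufa1, Ndufa5 and Ndufa13 the lowest. These 10 genes were picked by their weights, so their values are a description. The first 5 were above their mean in Ctrl replicates 2 and 3 and at or below it in Ang II replicates 1 and 2, while the last 5 were above their mean in Ang II replicates 1 and 3 and below it in Ctrl replicates 2 and 3.

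**Figure D5:**
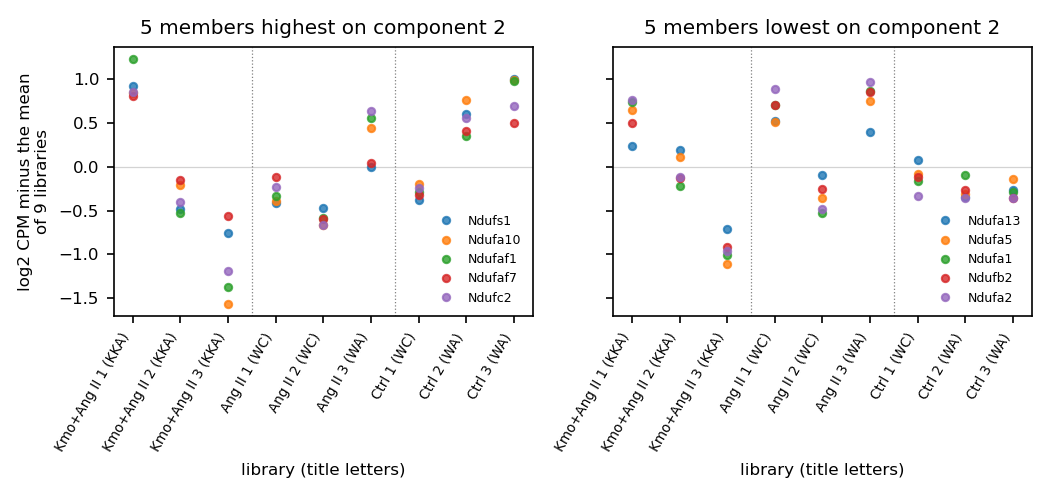
Log2 CPM minus the mean of 9 libraries for the 5 Nduf genes with the highest (left) and the 5 with the lowest (right) weight on the second principal component, by library. In Ctrl 2 and Ctrl 3 the genes on the left are above 0 and those on the right below it, while all 10 genes are below 0 in Kmo+Ang II 3.

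A ratio of reads within each library shows the contrast without any scaling between libraries. For each read of Ndufa10 there were 0.285, 0.384 and 0.567 reads of Ndufb2 in the Kmo+Ang II libraries, 0.773, 0.484 and 0.486 in the Ang II libraries and 0.384, 0.179 and 0.144 in the Ctrl libraries. The Ang II values of this pair all lay above the Ctrl values. For each read of Ndufs1 there were 0.616, 0.884 and 0.598 reads of Ndufa2 in Kmo+Ang II, 1.69, 0.682 and 1.34 in Ang II and 0.711, 0.353 and 0.270 in Ctrl hearts, and here Ang II replicate 2 lay below Ctrl replicate 1. Both pairs were chosen after their values were seen, so no test is given. Ndufb2 overlaps Gm42420 on the same strand, and Ndufs1 and Ndufa2 overlap genes on the other strand, so these ratios may include reads of other genes.

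The members with low weights have mostly short transcripts. Split at the median length of the members, the 23 short members had a median log2 difference, Ang II minus Ctrl, of 0.19 with 15 positive, and the 23 long members of -0.17 with 6 positive. Across the 46 members, which are not independent replicates, Spearman's rho between transcript length and this difference was -0.42, and across 14927 coding genes tested it was 0.03. For Kmo+Ang II minus Ang II rho was 0.50 across the members and -0.01 across the coding genes, and for WA minus WC it was 0.37 and -0.09. The first 2 of these comparisons share the Ang II libraries. With the percent of G and C bases in the transcript, rho across the members was 0.17 for Ang II minus Ctrl and -0.30 for Kmo+Ang II minus Ang II. For WA minus WC it was -0.43, at least as strong as with length. Whether RNA length, base content or quality sets this part of the spread was not tested.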

How the data were processed

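The authors deposited whole-number read counts per Ensembl gene for 9 mouse heart libraries, with 1 column per library and no scaling, per the file headers. Per the submitters' processing notes, the names Bowtie 0.12.2, HISAT2 2.0, StringTie 1.3.0 and the build mm8 apply, without roles or order, while for the counter, its annotation and the use of strand the answer is: not given in the sources used here. If rebuilt from transcript coverage, the counts would only approximate reads. All columns belonged to these samples, and all pairs of libraries differed by more than sampling noise (lowest chi-square per degree of freedom 56.6).

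Symbols matched 55141 of 55401 rows; 260 rows had none. Gene type and transcript length came from GENCODE M21 (GRCm38), promoters from RefSeq (GRCm38.p6), and since the build differs from mm8 no other coordinates are given. Length is that of the shortest best-supported principal transcript. In that annotation 19 of the 46 members overlap another gene, 3 of them on the same strand (Ndufb2, Ndufb8 and Ndufb9), so their counts are uncertain.

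The tests used edgeR 4.0.16 (R 4.3.3; quasi-likelihood F test, robust, TMM, filterByExpr, Benjamini-Hochberg over all genes tested, call at an adjusted p under 0.05). All 9 libraries entered 1 fit per grouping, and the 6 WA and WC libraries a fit of their own. The SE was derived from the log2 difference and its F statistic and restates the test. Log2 CPM used a prior count of 2. Replicate numbers follow sample order and pair nothing. Alternatives were other scalings and filters, DESeq2 1.42.0, limma 3.58.1 with voom, other libraries in the fit, a covariate and leaving out each library. The fits were also run on simulated counts with 200 genes changed 2-fold. Those counts had the same spread for all genes and otherwise the same mean profile in every library, unlike these data. They therefore do not measure how the fits perform here. Members, lists, tests and the rule for named genes were chosen with earlier results of these data known; by that rule the core subunits, Ndufab1, Ndufa4, Ndufa4l2, the 3 genes of highest and lowest spread and the 3 with the smallest p per comparison are named, with the pathway gene of smallest p. The values of 1 member are not reported here, and it is counted in the totals but not drawn.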

Additional observations from a re-analysis of the deposited data

How the results depend on the processing

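No paired analysis was possible because the labels give no replicate numbers, and those used here follow sample order. For the 3 treatment comparisons and KKA minus WC, 0 members were called under every alternative run. For WA minus WC, the fit of 9 libraries called 0 members under every scaling, filter and test run, while the DESeq2 Wald test called 505 of 19091 genes. Over libraries left out the edgeR fit of 9 libraries called 0 to 4 members. The 4 were without Kmo+Ang II replicate 1, beside 1576 of 19742 genes. Fitting only the groups compared called 19 members, and adding the treatment label as a covariate called 16. Both are fits of the 6 WA and WC libraries, the same as the fit of 6 as reported and with that covariate. For KKA minus WA the fit of 9 libraries called 0 to 13 members over libraries left out. The 13 were without Kmo+Ang II replicate 1, beside 1709 of 19742 genes. The fit of 6 libraries called 0 members when scaled by library size alone, beside 232 of 18111 genes. It called 17 to 27 members under the other scalings, filters and tests, beside 2253 to 3453 genes. With the treatment label as a covariate it called 16 members, beside 1946 of 18111 genes. Over libraries left out it called 1 to 25 members. The 1 was without Ang II replicate 2, beside 459 of 18741 genes, and the 25 without Ang II replicate 1, beside 2434 of 18692 genes. The members' median log2 difference for Ang II minus Ctrl was 0.59 when scaled by library size alone, which moved the median of all genes to 0.67 and left the members at -0.08 relative to it, against -0.10 as reported. Over libraries left out it ran from -0.34 to 0.14 and that for Kmo+Ang II minus Ang II from -0.72 to 0.20, and that for KKA minus WC ran from -0.40 to 0.54 over libraries left out; limma-voom gave -0.02. The cause of the shifts with libraries left out was not tested.

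Of the values of single named genes, 614 kept their side and direction, 17 became calls, 16 lost a call and 26 changed sign. The 17 include calls for WA minus WC from the fits of the 6 WA and WC libraries. Apart from those under scaling by library size alone, the losses came from leaving out a library. With scaling by library size alone, the sign changed for Ang II minus Ctrl in Ndufa4 (0.57) and Ndufa4l2 (0.28), for Kmo+Ang II minus Ctrl in Ndufaf4 (0.0751), Ndufs1 (0.0065) and Ndufa4 (0.23), and for WA minus WC in Ndufa4l2 (-0.24 in both fits). This scaling moves all genes alike, with medians of all genes at 0.67, 0.37, -0.33 and, in the fit of 6 libraries, -0.32, and relative to these medians each of the 7 values kept the sign it has under TMM. With the other grouping as a covariate the sign changed for Ndufa4 in Ang II minus Ctrl (0.16) and for Ndufa4l2 in WA minus WC (-0.0505). The latter is a single fit of the 6 WA and WC libraries that is counted under both WA minus WC comparisons. Over libraries left out, Ndufa4 ran from -0.47 to 0.15 for Ang II minus Ctrl, from -0.85 to 0.27 for Kmo+Ang II minus Ang II, from -0.96 to 0.14 for Kmo+Ang II minus Ctrl and from -0.45 to 0.65 for KKA minus WC. Ndufs1 ran from -0.34 to 0.66 for Kmo+Ang II minus Ang II and from -0.19 to 0.81 for KKA minus WC. For KKA minus WC, Ndufaf7 ran from -0.00787 to 0.74, Ndufa12 from -0.14 to 0.97 and Ndufaf2 from -0.21 to 0.94. For WA minus WC, Ndufa4l2 ran from -0.10 to 0.21 in the fit of 9 libraries and from -0.0775 to 0.22 in the fit of 6. Read depth limits little here, since every member had at least 137 reads in each library, and the spread between libraries sets the precision.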

Other observations

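Regulators of mitochondrial genes were measured beside the members. In the fit of the 6 WA and WC libraries edgeR called 3 of 11 higher in WA and 0 lower: Tfam, which binds mitochondrial DNA and is needed for its transcription, whose log2 difference was 0.80 ± 0.20 (SE; adjusted p = 0.0263), and, named after their values were seen, Ppargc1a, a coactivator of mitochondrial genes, with 0.87 ± 0.23 (adjusted p = 0.0275) and Esrrg, an oestrogen-related receptor, with 0.90 ± 0.27 (adjusted p = 0.0497). Of the 11 log2 differences 7 were positive and 4 negative, with a median of 0.18, below the 0.62 of the members. Of all genes tested in this fit, 8.06% were called higher. Tfam was at 17.7, 15.1 and 16.8 CPM in the WA libraries, against 11.8, 7.12 and 9.82 CPM in the WC libraries. Yy1 and Gabpa, whose motifs were sought in the promoters, were nearly flat, with SDs of log2 CPM over the 9 libraries of 0.09 and 0.12. Nrf1 averaged 10.3 ± 0.28 CPM in Ang II and 7.80 ± 1.13 CPM in Ctrl hearts (SD, n = 3 each), without overlap, and differed by 0.40 ± 0.19 on the log2 scale (SE; adjusted p = 0.89, edgeR), against 6.44% of all genes higher in Ang II without overlap. Of the 11 regulators, Esrra was also higher without overlap, by 0.55 ± 0.29 on the log2 scale, and Esrrb lower, by -0.64 ± 0.42, both at an adjusted p of 0.89 in edgeR and named after their values were seen.

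Among the Kmo+Ang II libraries, replicate 2 had the highest summed level of neutrophil markers of all 9 libraries, 286 CPM, beside 2.63 and 15.7 CPM in replicates 1 and 3. The summed level of the 46 Nduf genes in that library, 5032 CPM, lay between those of the other Kmo+Ang II libraries.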
